A study of Rattus norvegicus with 16 samples.

Results

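The genes depleted in CA1 are a group of 33 of the 32883 genes in the count table whose RNA was low in the CA1 pyramidal layer and present at similar levels in CA2, CA3 and the dentate gyrus (DG). They were chosen by their own levels in these libraries. Counts were scaled to the library total without the 2 genes that hold the most counts (CPM, counts in each 1 M counted). They were averaged over the 4 libraries of a subfield, and a member had CA2, CA3 and DG means of at least 5 CPM that were each at least 2 times the CA1 mean, with the highest of those 3 means below 2 times the lowest. Every contrast between subfields entered this choice, so the levels of the members are given as a description and carry no test.

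Laser capture microdissection was used by the study to collect the granule cell layer of the DG and the pyramidal cell layer of each CA subfield from Cresyl violet stained sections of 4 untreated male Wistar rats aged 3 months. Each of the 4 subfields has 4 libraries of total RNA, numbered 1 to 4. The subfields were identified with an atlas and, for CA2, by the look and density of its neurons, so that the borders rest on morphology. Library totals ran from 3216512 to 10332244 counts in CA1, 4467280 to 10228999 in CA2, 6587243 to 11933279 in CA3 and 4706523 to 9262214 in DG.

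Granule cells of the DG send mossy fibres to CA3, and CA3 pyramidal cells project through the Schaffer collaterals to CA1, which carries most of the output of the hippocampus proper to the subiculum and cortex. CA2 lies between CA3 and CA1 and is known for a low capacity for long-term potentiation. A gene that is low in CA1 alone separates it both from the other pyramidal cells and from granule cells, which differ from each other in shape and inputs.

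Before the members were described, the libraries were compared with each other. The counts of CA2 replicates 2 and 4 differed by no more than sampling noise, with a chi-square of 1.001 per degree of freedom over 12995 genes. DG replicates 2 and 4 gave 1.04 over 13766 genes, a small excess over that noise. In the other 22 pairs of libraries within a subfield it was 2.80 to 43.5. Both repeated pairs were therefore counted as 1 sample each, which leaves 3 samples in CA2 and DG and 4 in CA1 and CA3. Means and standard deviations (SD) below are over these samples, while the choice of members used all 16 libraries.

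The subfield labels were checked on marker genes. Of 6 markers fixed for each subfield, the study's own marker list pairs an identifier with 2 CA2 markers, 1 CA3 marker and 3 DG markers, and for CA1 Wfs1 and Pex5l are described. Wfs1, an endoplasmic reticulum membrane protein, reached 873 ± 96.5 CPM in CA1 against 43.2 ± 57.5 CPM in CA3 (SD, n = 4 each). Amigo2, an adhesion molecule, reached 153 ± 33.6 CPM in CA2 (SD, n = 3), while CA1 gave 15.2 ± 8.53 CPM (SD, n = 4). Fxyd7, a regulator of the sodium pump, reached 90.8 ± 11.8 CPM in CA3 (SD, n = 4). Prox1, the transcription factor that specifies granule cells, reached 481 ± 73.3 CPM in DG (SD, n = 3), while CA1 gave 4.75 ± 1.44 CPM (SD, n = 4). These markers were thus highest in the 4 libraries of their own subfield, although that list was drawn up by the study on these same samples. No marker of astrocytes, oligodendrocytes, microglia, vessels, choroid plexus or interneurons has an identifier there, so their share in the captured layers could not be checked.

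The condition on abundance left 10070 genes, of which 63 were at least 2 times higher in CA2, CA3 and DG than in CA1. The limit on the spread of those 3 means then removed 30 and left the 33 members. The same rule gave 7 genes depleted in CA2, 22 in CA3 and 184 in DG. Turned round, with a mean of at least 5 CPM and at least 2 times each other subfield, it gave 137 genes for CA1. That count has no limit on the spread of the other 3 subfields, and without the limit 63 genes were depleted in CA1. In each of the 4 subfields the enriched genes outnumbered the depleted ones, so this is not particular to CA1, and the DG held the largest depleted group. The 288 identifiers that the files pair with a symbol come from the study's list of genes at least 4 times higher in a single subfield. The rule for this group all but excludes such genes, and none of the 33 members is among them. The functions, chromosomal positions and promoters of the members are therefore not given. Other than the 4 printed by identifier, members are called by rank. This is the rank in the ratio of the lowest of the CA2, CA3 and DG means to the CA1 mean.

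**Figure D1:**
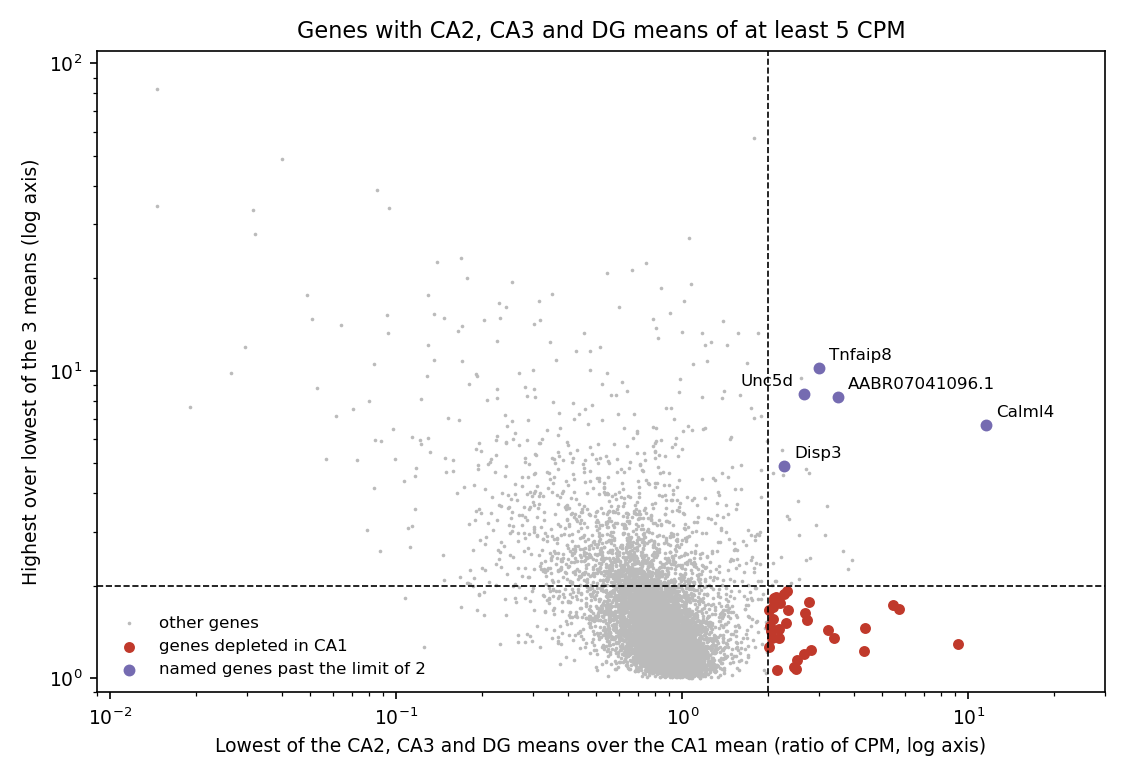
Ratio of the lowest of the CA2, CA3 and DG means to the CA1 mean (x axis, log scale) against the ratio of the highest to the lowest of those 3 means (y axis, log scale) for the 10070 genes with all 3 means of at least 5 CPM; dashed lines mark ratios of 2. The 33 genes depleted in CA1 (red) lie right of 2 and below 2, and 5 named genes (violet) lie above the limit.

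ENSRNOG00000011680 had the highest ratio, with the lowest of its 3 other means 9.21 times its CA1 mean. Its CA1 libraries gave 1.98, 17.97, 12.5 and 5.66 CPM in replicates 1 to 4, a mean of 9.54 ± 7.13 CPM (SD, n = 4). In CA2 it gave 120.0, 97.7, 109.96 and 94.9 CPM. The 4 CA3 libraries gave 87.2, 103, 76.1 and 85.4 CPM. DG libraries gave 109.8, 109.95, 108 and 129 CPM. The 12 libraries of the other subfields lay between 76.1 and 129 CPM, far above the highest CA1 library, and the subfield means of 109 ± 11.899 CPM in CA2 (SD, n = 3), 87.9 ± 11.1 in CA3 (SD, n = 4) and 112 ± 6.17 in DG (SD, n = 3) differed little beside this gap. Within CA1 the counts were 15, 153, 84 and 14 from libraries of unequal size, and replicates 1 and 4 were the lowest on both scales.

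ENSRNOG00000025787 followed with a ratio of 5.71 and was among the scarcest members. Its CA1 libraries held 5, 8, 10 and 2 counts, or 0.661, 0.940, 1.49 and 0.808 CPM. In CA2 it gave 6.72, 5.92, 6.23 and 3.41 CPM. CA3 libraries gave 9.55, 7.56, 8.67 and 11.8 CPM. The DG libraries gave 5.93, 8.81, 3.96 and 10.9 CPM. The lowest library outside CA1 was thus a CA2 library at 3.41 CPM, above all 4 CA1 libraries, and the CA1 level rests on few counts.

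ENSRNOG00000031232, of rank 3, showed a graded pattern. It gave 10.3, 25.8, 17.8 and 14.96 CPM in CA1, and its mean of 17.2 ± 6.52 CPM (SD, n = 4) was below every other library. CA2 libraries gave 83.7, 92.4, 104 and 96.2 CPM. In CA3 the values were 133, 144, 136 and 171 CPM. In DG they were 140, 169, 182 and 159 CPM. CA2 therefore took a middle place, with none of its libraries reaching the lowest CA3 or DG library, whereas CA3 and DG overlapped.

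ENSRNOG00000000105 had the highest CPM of the group, on a scale that is not corrected for gene length. CA1 libraries gave 161, 273, 308 and 241 CPM, a mean of 246 ± 62.6 CPM (SD, n = 4). CA2 libraries gave 641, 687, 707 and 679 CPM. The CA3 libraries gave 602, 747, 650 and 686 CPM. In DG the values were 957, 976, 1255 and 961 CPM. The DG libraries were all above those of CA2 and CA3, which overlapped, and the CA1 libraries were all below. This gene alone made up between 20.1% and 32.9% of the summed CPM of the 33 members, so that sum follows it in part.

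**Figure D2:**
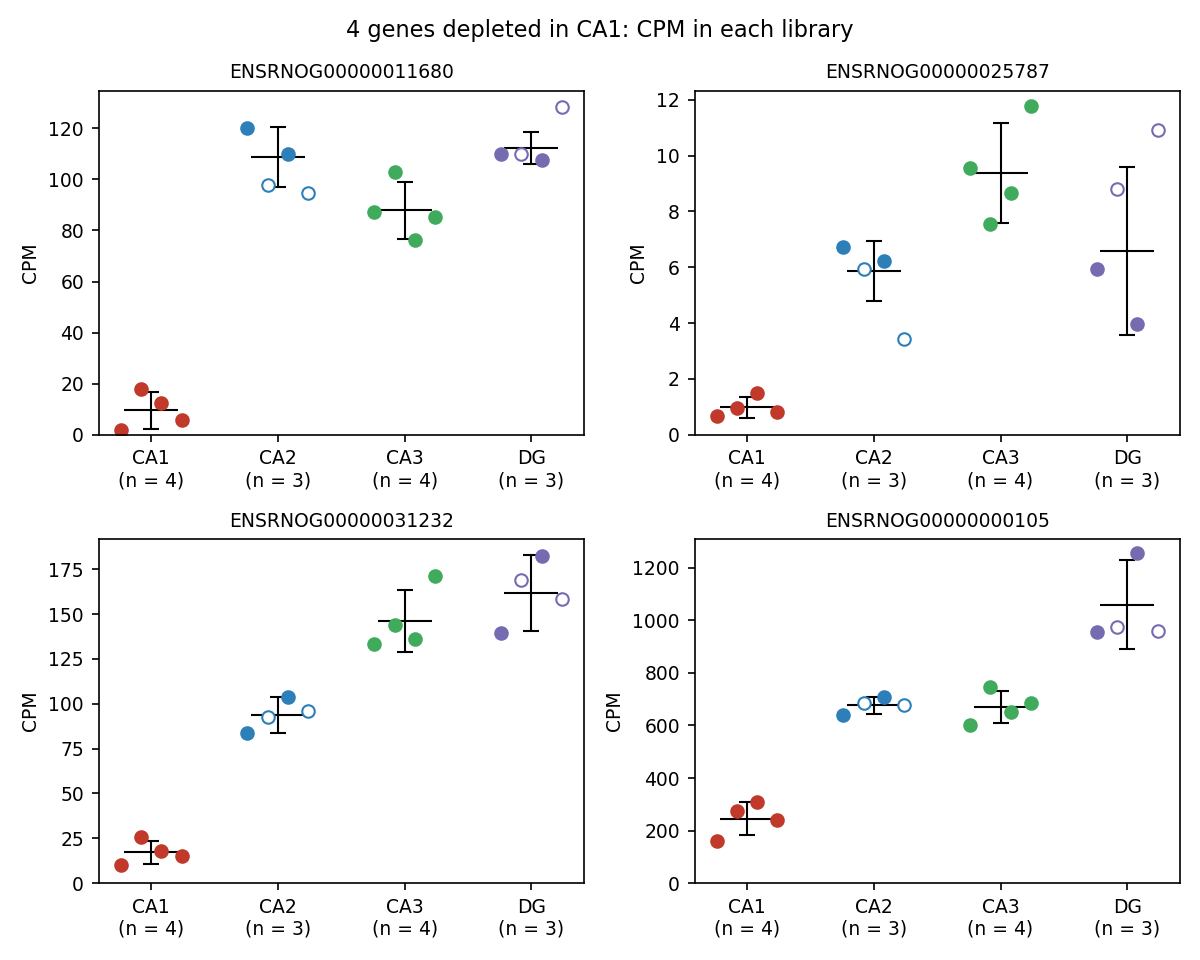
CPM (y axis, linear from 0) of 4 genes depleted in CA1 in each of the 16 libraries by subfield (x axis; points from left to right are replicates 1 to 4, open points are the repeated pairs); horizontal bars and whiskers are mean ± SD over n samples. CA1 libraries lie below the other libraries in each panel, and ENSRNOG00000000105 is highest in DG.

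The remaining members had smaller ratios. In all, 5 members had a ratio of at least 4, 7 of at least 3 and 13 of at least 2.5, and the median was 2.33. Among the 10070 genes that met the abundance condition the median of the same ratio was 0.855. Most of the group therefore lay close to the threshold, and a few members stood well away from it. The member of rank 4 gave 2.41 ± 0.885 CPM in CA1 (SD, n = 4) and was highest in CA2, at 16.4 ± 5.51 CPM (SD, n = 3). Rank 5 gave 8.07 ± 2.41 CPM in CA1 against 34.9 ± 3.58 CPM in CA3 (SD, n = 4 each), its lowest other subfield. Rank 6 gave 47.4 ± 6.54 CPM in CA1 (SD, n = 4) and was lowest elsewhere in CA2, at 159.98 ± 9.84 CPM (SD, n = 3). These 3 genes were below their other 12 libraries in each CA1 library. CA1 means over the group ran from 0.975 to 246 CPM with a median of 9.54 CPM, and 10 members were below 5 CPM there.

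Of the other members with high ratios, ranks 7, 11 and 15 were scarce, with CA1 means of 1.91 ± 0.358, 1.94 ± 0.818 and 5.23 ± 1.18 CPM (SD, n = 4). Rank 7 was highest in CA3, at 8.93 ± 1.35 CPM, as was rank 11, at 8.54 ± 1.14 CPM (SD, n = 4). Rank 15 was nearly level elsewhere, from 12.03 ± 3.17 CPM in DG (SD, n = 3) to 14.4 ± 4.07 CPM in CA2 (SD, n = 3). Each was lower in every CA1 library than in any other. Rank 9 gave 28.3 ± 4.90 CPM in CA1 and 78.6 ± 8.80 CPM in CA3 (SD, n = 4 each), with DG highest at 137 ± 15.9 CPM (SD, n = 3). Rank 12 gave 11.92 ± 2.04 CPM in CA1 (SD, n = 4), and its next lowest subfield was DG, at 32.6 ± 4.37 CPM (SD, n = 3). Rank 14 gave 20.7 ± 5.81 CPM in CA1 and 53.1 ± 10.7 CPM in CA3 (SD, n = 4 each), and CA2 and DG were within 2 CPM of that level.

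Abundant members also differed in how far CA1 fell below the rest. Rank 8 gave 40.5 ± 2.96 CPM in CA1 (SD, n = 4) and was lowest elsewhere in CA2, at 119 ± 18.5 CPM (SD, n = 3). Rank 30 gave 158, 192, 176 and 196 CPM in the 4 CA1 libraries. Its mean was 423 ± 28.8 CPM in CA2 (SD, n = 3), was highest in CA3, at 523 ± 42 CPM (SD, n = 4), and lowest of the 3 in DG, at 360.1 ± 28 CPM (SD, n = 3). Rank 21 gave 64.9 ± 10.6 CPM in CA1 and 142 ± 23.9 CPM in CA3 (SD, n = 4 each), its lowest other subfield. Rank 30 was 1 of 3 members with a CA1 mean of at least 100 CPM, and its RNA was thus well measured in CA1 although its ratio was close to the threshold.

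Just inside the threshold of 2, the 3 members with the lowest ratios had 2.01, 2.02 and 2.03. The member at 2.01 had a CA1 mean over 4 libraries of 3.33 CPM, with CA2, CA3 and DG at 8.47, 6.69 and 6.75 CPM. The 3 genes closest below the threshold that met the other conditions had ratios of 1.98, 1.97 and 1.96. The gene at 1.98 had a CA1 mean of 40.3 CPM, with CA2, CA3 and DG at 88.6, 96.8 and 79.7 CPM. No gap separated members from non-members, as 9 genes had ratios from 2 up to 2.1 and 7 from 1.9 up to 2.

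**Figure D3:**
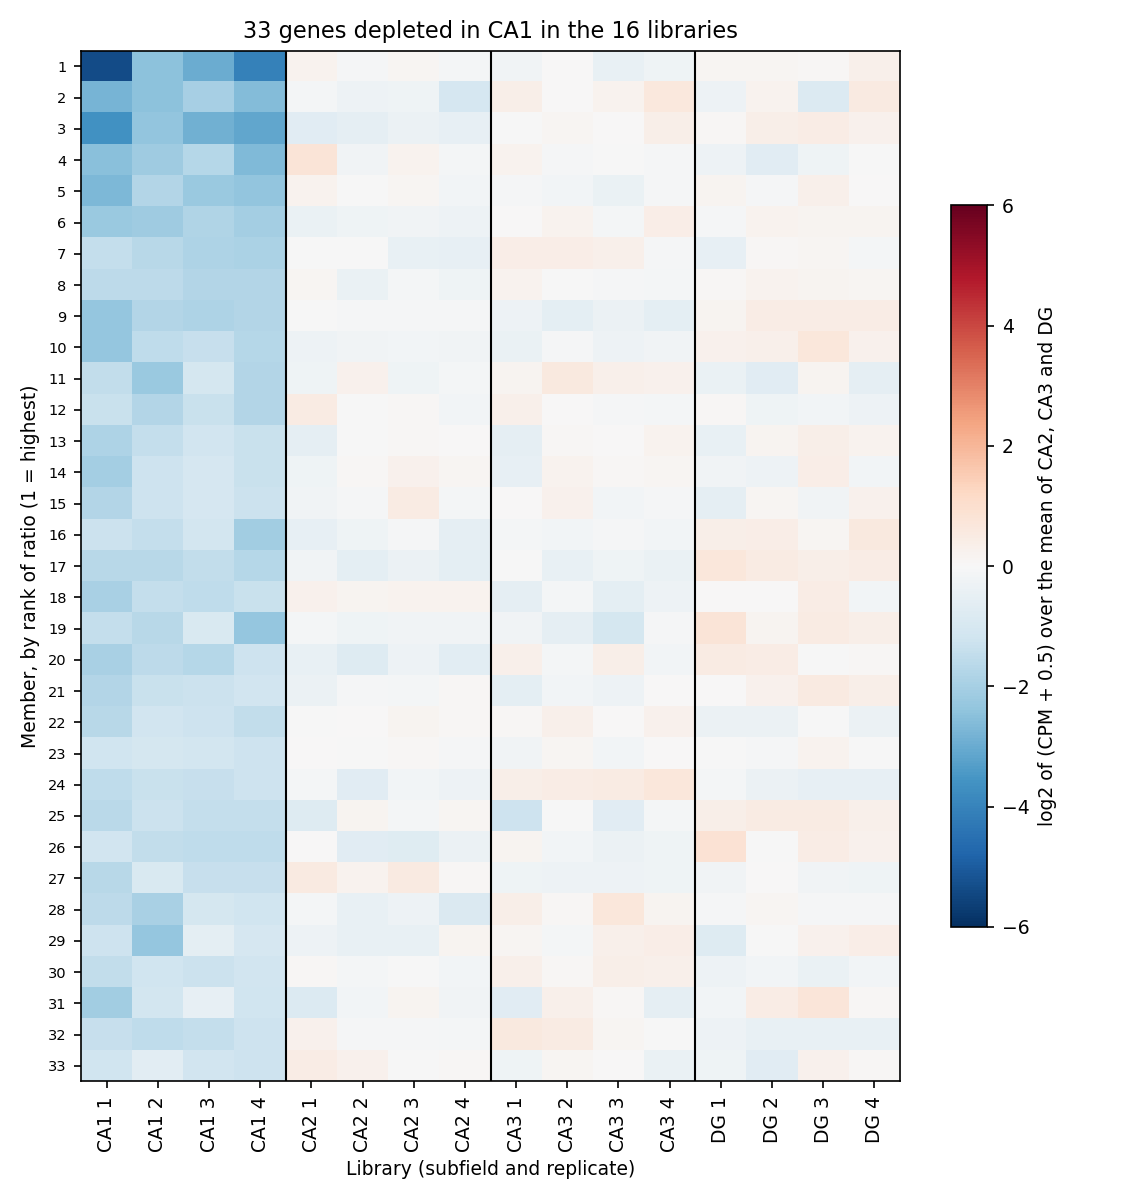
Log2 of the CPM of each member over the mean of its CA2, CA3 and DG means (0.5 CPM added to both), with the 33 members from top to bottom (y axis, by rank of ratio) and the 16 libraries from left to right (x axis); blue is lower and red is higher. The 4 CA1 columns are blue for the 33 members, and the darkest cell is the member of rank 1 in CA1 replicate 1, at 1.98 CPM.

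The CA1 libraries were below the other 12 in 29 of the 33 members, as the choice of the group favoured, while 2.74% of the 10070 genes that met the abundance condition had that order. In the other 4 members the highest CA1 library passed the lowest library elsewhere. These had ranks 19, 29, 31 and 33 and all were scarce. Rank 19, for instance, gave 6.27 CPM in CA1 replicate 3 and 5.70 CPM in CA3 replicate 3. The lowest other library of these 4 genes held between 17 and 46 counts, and their ratios were between 2.01 and 2.26.

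Summed over the group, the members gave 803, 1082, 1125 and 1016 CPM in the 4 CA1 libraries. The sum was 1006 ± 143 CPM in CA1 (SD, n = 4), 2826 ± 101 in CA2 (SD, n = 3), 2995 ± 147 in CA3 (SD, n = 4) and 3469 ± 325 in DG (SD, n = 3). No library outside CA1 was below 2764 CPM. In these bulk samples fewer cells of a type and less RNA per cell cannot be told apart, so the sums give how much of the RNA of each captured layer came from these genes and not how many cells made it. Without its most abundant member the sum kept the same gap, with at most 817 CPM in CA1 and at least 2079 CPM elsewhere.

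The members also differed in where they were highest. Of the 33, 16 had their highest mean in DG, 10 in CA3 and 7 in CA2. In percent this was 48.5% for DG, 30.3% for CA3 and 21.2% for CA2. Among the 8455 genes that met the abundance condition and the limit on spread, 53.2% were highest in DG, 23.2% in CA3 and 23.7% in CA2. The distribution over the 3 subfields was therefore close to that of genes in general, and nothing particular to the group is read from it. The highest of the 3 means was a median of 1.48 times the lowest in the members and 1.32 times in those 8455 genes.

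In 19 members no subfield among CA2, CA3 and DG had all its libraries apart from those of the other 2. No share over the 8455 genes is given for this count, and nothing is read from it. The DG libraries were all above those of CA2 and CA3 in 6 of the 33 members, and in 19.9% of the 8455 genes. Rank 17 was one of them, with 130 ± 15.6 CPM in DG (SD, n = 3) against 69.5 ± 9.01 in CA2 (SD, n = 3) and 75.2 ± 10.52 in CA3 (SD, n = 4). CA3 libraries were all above the others in 2 members, against 1.999% of those genes. Rank 24, for example, gave 17.2 ± 1.68 CPM in CA3 (SD, n = 4), 10.1 ± 1.36 in CA2 (SD, n = 3) and 9.51 ± 1.40 in DG (SD, n = 3). CA2 libraries were all above in 1 member (2.73% of those genes), that of rank 27, with 62.8 ± 9.32 CPM in CA2 (SD, n = 3) and 38.5 ± 0.690 in CA3 (SD, n = 4). In the opposite direction, CA2 libraries were all below in 4 members, CA3 libraries in 2 and DG libraries in 1, against 2.18%, 3.16% and 9.82% of those genes. These shares were not tested, as the members were chosen on the same levels. At the other end, the member of rank 23 was nearly level outside CA1, at 149 ± 6.75 CPM in CA2 (SD, n = 3), 143 ± 15.1 in CA3 (SD, n = 4) and 154 ± 15.2 in DG (SD, n = 3). Its CA1 mean was 66.5 ± 4.33 CPM (SD, n = 4).

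Among the members, spread between samples was wider in CA1 than elsewhere. The SD was a median of 22.2% of the mean in CA1, compared with 14.2%, 13.997% and 14.7% for CA2, CA3 and DG. The members were chosen for a low level in CA1, and no such value over all genes is given. Nothing is therefore read for CA1 in general. CA1 replicate 1 held the lowest CA1 value in 19 of the 33 members, against 26.9% of the 10070 genes that met the abundance condition. Its level was a median of 0.839 times the mean of the other 3 CA1 libraries over the members and 1.01 times over those genes. CA1 replicate 3 held the highest CA1 value in 15 members, and did so in 20.95% of those genes. Without CA1 replicate 1 the rule gave 32 members, of which 29 were among the 33, and without CA1 replicate 3 it gave 41, of which 31 were.

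Replicate 1 was also the lowest in all 4 subfields for 5 members, those of ranks 3, 10, 13, 21 and 31. Over the 10070 genes this held for 9.56%. Replicate 1 was the highest in all 4 subfields for 1 member and for 11.6% of those genes. Rank 13 gave 75.8 CPM in replicate 1 of CA1 and between 102 and 122 CPM in the other 3 CA1 libraries. It gave 191 CPM in replicate 1 of CA2, 191 in that of CA3 and 201 in that of DG, while the other libraries of these subfields were between 273 and 353 CPM. A difference between replicates thus ran through the 4 subfields for this gene. In CA2 and DG, replicates 2 and 4 are the repeated pairs taken as 1 sample, so they are not separate in the counts that follow. Within each replicate number the lowest of CA2, CA3 and DG was above CA1 in 33, 32, 32 and 33 members in replicates 1 to 4, which the choice of the members favours, and the lowest of these ratios was 0.909, in replicate 3. The factor of 2 was reached in 30, 25, 20 and 26 members of the respective replicates, and in 13 members in each of the 4. These counts rest on the levels that chose the members. No share over the 10070 genes is given for them, and nothing is read from them.

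Markers of CA2 varied between the CA1 libraries, and their sum did so in the same order as some members. The 2 CA2 markers with an identifier, Amigo2 and Cacng5, summed to 10.4, 37.2, 29.3 and 13.7 CPM in CA1 replicates 1 to 4, which in percent of their CA2 level was 5.02%, 17.9%, 14.1% and 6.61%. Amigo2 was the more abundant of the pair and gave the sum its order. Cacng5 gave 3.04, 10.7, 12.4 and 3.64 CPM and so was highest in replicate 3, and neither was at 0 in a CA1 library. Rank 5 gave 5.68, 11.4, 7.91 and 7.28 CPM in these libraries, the same order from lowest to highest as the sum, and ENSRNOG00000011680 and ENSRNOG00000031232 shared it. In all 5 of 33 members had this order, against 4.06% of the 10070 genes. Granule cell markers did not follow it, as Prox1, Dsp and C1ql2 summed to 5.42, 8.22, 7.02 and 8.49 CPM, at most 1.07% of their DG level. The CA3 marker Fxyd7 gave 4.89, 7.05, 7.76 and 7.68 CPM. Their part in the CA1 levels of the members was not tested. The log2 fold change of ENSRNOG00000011680 for CA2 over CA1, 3.48 with all libraries, was 4.06 without CA1 replicate 2, its own highest CA1 library, and 3.10 without replicate 1, its lowest.

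**Figure D4:**
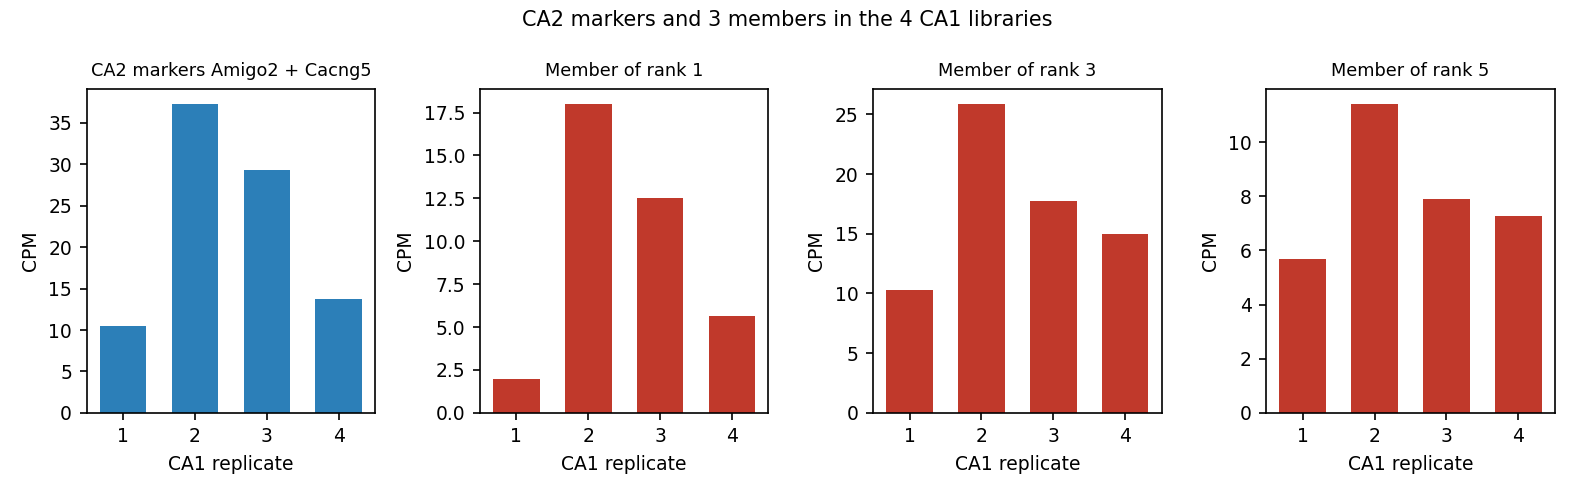
CPM (y axis, linear from 0) in CA1 replicates 1 to 4 (x axis) of the CA2 markers Amigo2 and Cacng5 summed (blue) and of the members of ranks 1, 3 and 5 (red); each bar is 1 library. The members shown are among the 5 that have the order of the marker sum, so their match to it is a matter of choice. Replicate 2 is the highest in each panel, with 37.2 CPM for the markers and 17.97 CPM for the member of rank 1. Ranks 2 and 4, not shown, are highest in replicate 3, at 1.49 and 3.58 CPM. Over all members, 15 are highest in replicate 3 and 10 in replicate 2.

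CA1 markers were likewise counted in the other subfields. Wfs1 gave 65.9, 165, 105 and 168 CPM in the CA2 libraries, below its lowest CA1 library at 786 CPM. In CA3 replicate 2 it gave 129 CPM, and the other CA3 libraries gave between 10.6 and 16.97 CPM. Pex5l, a partner of HCN channels, gave 84.6 CPM in CA3 replicate 2 and between 48.8 and 55.02 CPM in the others, below its lowest CA1 library at 374 CPM. CA2 replicates 2 and 4, a repeated pair and the highest of CA2 in both markers, had the lowest member sums of that subfield, 2766 and 2764 CPM, next to 2771 in replicate 1 and 2943 in replicate 3. CA3 replicate 2 had a member sum of 3084 CPM, the second highest of CA3. The part of these markers in the sums was not tested.

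All genes were compared between CA1 and each other subfield with edgeR to give the background of the group. Of 17174 genes tested, 1374 were lower in CA1 than in CA2, 2175 were lower than in CA3 and 2441 were lower than in DG, at an adjusted p under 0.05. In all 3 comparisons, which share the CA1 libraries, 288 genes (1.68%) were lower in CA1 and 433 (2.52%) were higher. The libraries of the 4 subfields came from the same rats, and with the replicate number as a block over the 16 libraries the 288 became 444, against 322 for the 16 libraries without a block. All 33 members passed the filter of more than 10 counts in total, and 32 of them were among the 288, a count that the choice of the members fixes and from which nothing is read. Outside was rank 31, with a log2 fold change of 1.11 ± 0.387 (SE) for CA2 over CA1, and it passed in the 3 comparisons when the 16 libraries were taken separately, with the block or without it.

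Fold changes of the members are given as a description. For CA2 over CA1 the median log2 fold change was 1.501 over the 33 members, from 1.11 to 3.48, and 0.01 over all genes tested. For CA3 over CA1 it was 1.60, from 1.07 to 3.29. DG over CA1 gave 1.66, from 0.88 to 3.35. The 3 comparisons thus gave medians of like size, which the limit on the spread of the other subfields asks for. ENSRNOG00000011680 gave 3.48 ± 0.327 for CA2, 3.198 ± 0.315 for CA3 and 3.35 ± 0.327 for DG over CA1 (SE). ENSRNOG00000000105 gave 1.53 ± 0.155, 1.54 ± 0.147 and 2.01 ± 0.156 (SE) in the same order.

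Some named genes met every condition but the limit on spread, which they exceeded by far. Of the 30 genes left out by the limit alone, 17 were highest in DG, 11 in CA3 and 2 in CA2, and 20 had their lowest other mean in CA2. The 5 with a symbol all come from the study's list of DG markers, so that their high level in DG is not independent evidence. That list asks for a level in DG far above the other subfields, so their place past the limit is all but fixed by it. Unc5d, a receptor for netrins in axon guidance, gave 14.02 ± 5.43 CPM in CA1 (SD, n = 4), 36.9 ± 3.37 in CA2 (SD, n = 3), 59.3 ± 8.91 in CA3 (SD, n = 4) and 309 ± 18.5 in DG (SD, n = 3). Its 4 CA1 libraries, at 12.3, 22.1, 11.2 and 10.51 CPM, were below the 4 CA2 libraries, which gave 39.2, 37.0, 33.0 and 39.8 CPM. Tnfaip8, a protein linked to the control of cell death, gave 2.02 ± 0.898 CPM in CA1 (SD, n = 4), 5.86 ± 0.706 in CA2 (SD, n = 3), 10.53 ± 1.67 in CA3 (SD, n = 4) and 61.3 ± 9.49 in DG (SD, n = 3). The means of both genes increased step by step from CA1 through CA2 and CA3 to DG.

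Calml4, a calmodulin-like protein, had the highest ratio of the 5, at 11.54, which was 18.9 without CA1 replicate 1 and 8.66 without CA1 replicate 2. Its CA1 libraries gave 1.19, 0, 0.597 and 0.404 CPM. The CA2 libraries gave 9.22, 4.74, 4.48 and 7.28 CPM. CA3 libraries gave 8.34, 6.402, 5.95 and 4.59 CPM. With a DG mean of 43.6 ± 7.52 CPM (SD, n = 3) it failed the limit, although CA2 and CA3 were level. Disp3, a member of the dispatched family of membrane proteins, gave 3.42 ± 1.44 CPM in CA1 (SD, n = 4), 7.83 ± 1.79 in CA2 (SD, n = 3) and 37.9 ± 4.91 in DG (SD, n = 3). AABR07041096.1 gave 2.15 ± 1.26 CPM in CA1 (SD, n = 4), 7.30 ± 0.896 in CA2 (SD, n = 3) and 63.5 ± 8.04 in DG (SD, n = 3). Its lowest CA3 library, at 2.85 CPM, overlapped CA1, whose highest library was at 3.99 CPM.

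**Figure D5:**
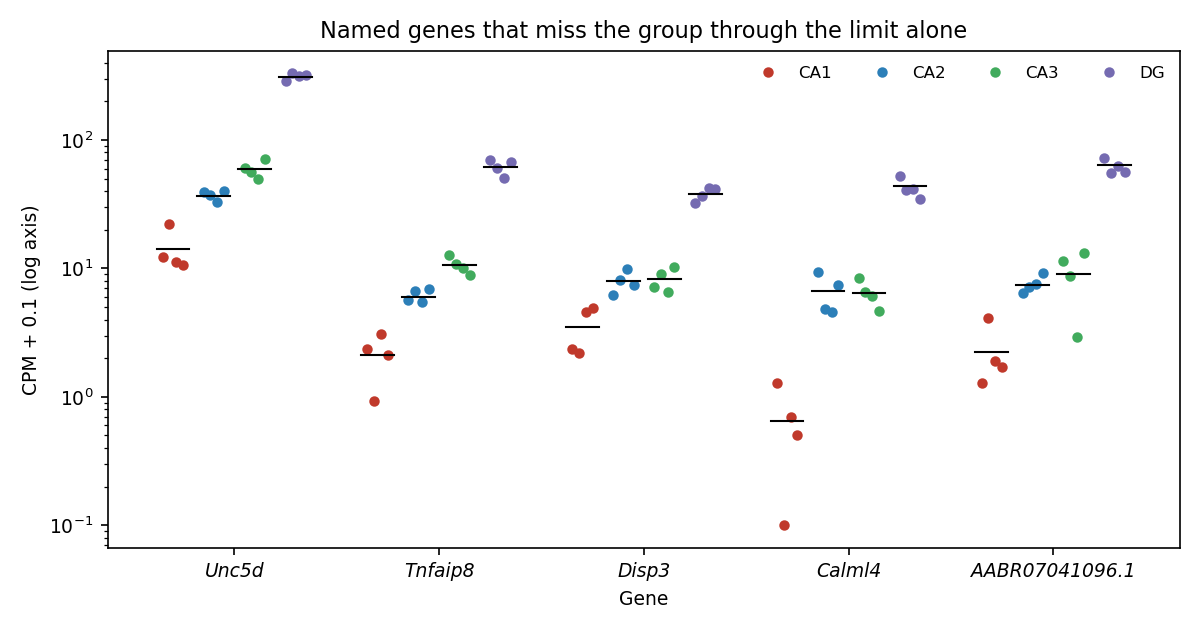
CPM (y axis, log scale, with 0.1 CPM added) of the 5 named genes that met the rule for CA1 depletion except for the limit on spread (x axis), by subfield (colour); points are libraries in the order of replicates 1 to 4 and black lines are means over samples. DG is highest for each gene, with 309 CPM for Unc5d, and CA1 is the lowest mean.

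Of the 743 genes in the lists fixed for cell types, neuronal functions, signalling, metabolism and other gene groups, 37 have an identifier in the study's marker list. None of the 37 is from the lists for glia, vessels, choroid plexus or interneurons. The lists for calcium-binding proteins, cytoskeleton, MHC class I and complement are empty as well. So are those for glycolysis and for nuclear genes of oxidative phosphorylation, and metabolism is therefore not covered. The marker list was chosen by the study on these samples and holds 226 DG markers, so its genes lean to DG. By edgeR 9 of the 37 were lower in CA1 than in CA2, 10 lower than in CA3 and 29 lower than in DG. In the other direction 8 were higher in CA1 than in CA2, 15 higher than in CA3 and 8 higher than in DG. Of all 288 genes with a symbol, 41 were lower in CA1 than in CA2, 51 lower than in CA3, 227 lower than in DG and 12 lower in all 3. In the same order 46, 58, 46 and 34 of the 288 were higher in CA1, so the lead of DG is that of the whole list. Of the 37 list genes, 4 were lower in CA1 in all 3 comparisons, which were Unc5d, Fxyd7, Rgs10 and Kcnc4, and 5 were higher. Rgs10, a regulator of G protein signalling, was lower in CA1 than in CA2 by the smallest of its 3 differences, a log2 fold change of 0.74 ± 0.142 for CA2 over CA1 (SE, edgeR adjusted p = 0.000842). Kcnc4, a subunit of fast voltage-gated potassium channels, gave 0.71 ± 0.199 for CA2 over CA1 (SE, edgeR adjusted p = 0.0177). Fxyd7 gave 0.94 ± 0.270 for CA2 over CA1 (SE, edgeR adjusted p = 0.0220) and 0.94 ± 0.268 for DG over CA1 (SE, edgeR adjusted p = 0.0111). Fxyd7 overlapped between CA1 and CA2, as the repeated CA2 pair gave 5.04 and 7.51 CPM and CA1 up to 7.76 CPM. Its call against CA2 was lost without CA1 replicate 1, CA2 replicate 1 or CA2 replicate 3 (edgeR adjusted p = 0.0783, 0.163 and 0.121), and that against DG was lost without DG replicate 3 (edgeR adjusted p = 0.0907). Kcnc4 lost its call against CA2 without the repeated CA2 pair or CA2 replicate 3 (edgeR adjusted p = 0.08197 and 0.0747). Rgs10, Kcnc4 and Fxyd7 had lowest ratios of 1.57, 1.69 and 1.59 and so were outside the group by size. They were also past the limit, which a place on the marker list all but fixes.

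Over the 14 samples the members followed one pattern closely. The Pearson correlation of the log2 CPM of each member with their mean was between 0.789 and 0.985, with a median of 0.924, which the choice of the group brings about. The samples share rats and 4 subfields, so these values describe likeness and carry no p. The 5 non-members most like the group had correlations between 0.939 and 0.948 and have no symbol. One of them had a CA1 mean over 4 libraries of 141 CPM, with CA2, CA3 and DG at 666, 535 and 1212 CPM, and missed the group through the limit. Another had 33.4 CPM in CA1, with the other subfields at 56.9, 56.8 and 67.5 CPM in the same order, with the same shape and a smaller ratio. Among genes with a symbol that met the abundance condition, the most alike was Calml4 at 0.835, followed by Unc5d at 0.776.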

How the data were processed

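RNA of the 4 subfields was sequenced by the authors, aligned to the Rnor6 rat assembly by STAR and deposited as raw counts of reads per Ensembl gene; the counting program and strand setting are not given in the sources used here. The deposited tables of the authors' own comparisons hold DESeq2 fold changes and p-values and were not used. The members and gene lists were chosen with earlier results of these data known. CPM takes the library totals with the 2 genes that hold the most counts (18.7% and 2.87% of all) left out. Of each library, 3 counts equal between 0.315 and 1.21 CPM, the limit that a count of 0 allows, for counting error only. Repeated pairs of libraries were averaged as CPM and summed as counts. Genes with more than 10 counts were tested with edgeR 4.0.16 (R 4.3.3), TMM normalization, 1 coefficient per subfield and quasi-likelihood F-tests with Benjamini-Hochberg adjustment; standard errors (SE) are the log2 fold change divided by the square root of F, without sign. The fit was also run on simulated data, and the outcome is not given here. DESeq2 1.42.0 was an alternative. Other steps used Python 3.11.15 with pandas 2.3.3, and plots matplotlib 3.10.9. Genes named are the 15 members with the highest ratio, the 10 with the highest CPM, those beside the threshold, list genes lower in CA1 in all 3 comparisons, subfield markers and the non-members most alike; most members could be given by rank or range only. The planned count of promoter motifs was not run, since no member could be matched to a promoter. Ranks 17, 19, 24, 26 and 27, genes left out by the limit, the replicate pattern and the order of CA2 markers were chosen after their values were seen. Leaving out CA1 libraries for the named genes past the limit was added after the data were seen.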

Additional observations from a re-analysis of the deposited data

Results flagged for a closer look

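In groups of 4 samples, a value was marked when its gap to the nearest other value, as a share of the range of the group, was past the critical value of Dixon's test (CA1 and CA3 only). Of 98 groups tested 4 were past it, and chance gives about 1 in 20. The member of rank 26 had a share of 0.895 in CA1, where replicate 1 gave 10.7 CPM and the others between 8.06 and 8.34 CPM. The member of rank 33 had a share of 0.910 in CA1, where replicate 2 gave 4.58 CPM and the others between 2.83 and 2.99 CPM. Unc5d had a share of 0.846 in CA1, where replicate 2 gave 22.1 CPM and the next 12.3 CPM. Wfs1 in CA3 had a share of 0.946, with 129 CPM in replicate 2 and at most 16.97 CPM in the others. It is a CA1 marker, and the summed CPM of the 33 members in CA3 replicate 2, 3084 CPM, was within the range of the other CA3 libraries.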

How the results depend on the processing

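The number of members depends on the thresholds: the rule gave 96 genes with a ratio of 1.5, 7 with a ratio of 3 and 63 with no limit on the spread of CA2, CA3 and DG. Leaving out each library gave 31 to 41 members, the highest without CA1 replicate 3, with 29 to 33 of the 33 among them. With repeated columns counted once 31 of 34 were shared, and minima of 2 and 10 CPM gave 39 and 24. With TMM-normalized CPM the rule gave 34 genes, and 28 of these were shared, which is 84.8% of the 33 members. With the 2 top genes kept in the totals it gave 23 genes, all of them members. These are 69.7% of the 33, so the other members depend on leaving the 2 genes out. In a paired fit over 16 libraries, where the replicate block is the library number, 444 genes were lower in CA1 in all 3 comparisons in place of 288; the 16 libraries without a block gave 322, and the block with the repeated column of replicate 4 or 2 left out gave 356 or 414. Genes higher in CA1 than in CA2 were 1081, with 1331 for the 16 libraries, 1797 for these with the block, and 1469 or 1583 with the block and the repeated column left out. The other edgeR counts moved by less than 1.5 times. Of 24 correlations between same-numbered libraries of 2 subfields 19 were above 0.1, as were 19 of 72 between libraries with different numbers, and the highest, 0.562 to 0.654, were all of replicate 1, so that pairing by number is uncertain for the others. Without each library in turn, genes lower in CA1 were 966 to 1406 against CA2, 1848 to 2200 against CA3, 2109 to 2664 against DG and 237 to 303 against all 3, and list genes lower against all 3 were 3 to 4. Low counts in CA1, 2 to 10 per library for ENSRNOG00000025787, limit the ratios of scarce members. No symbol limits what can be said of function.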
